A study of Saccharomyces cerevisiae with 5 samples.

Results

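The genes of the yeast proteasome, together with RPN4, the transcription factor that drives them, were examined in cells recovering from high hydrostatic pressure. The members are 38 listed genes: 14 subunits of the 20S core particle, 10 of the base, 8 of the lid, 5 assembly factors or proteasome-bound proteins, and RPN4. They were found by symbol in the annotation of the array, and 36 of the 38 had a value in at least 2 hybridizations, among 4368 genes and unnamed features that did. PRE7 and RPN2 had a value in hybridization 1 alone.

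Saccharomyces cerevisiae in exponential growth was held for 16 h at 30 MPa and 25 °C. In one group the cells were then left at 0.1 MPa for 2 h (recovery, labelled with Cy5), and in the other they were collected right at decompression, at 0 h (decompressed, labelled with Cy3). Both groups had therefore been under pressure, and no culture that never was enters the comparison. The labels name no strain. Both RNAs were hybridized to the same 2-colour array, in 3 hybridizations of independent biological samples. Hybridizations 1 and 2 were scanned at high and low laser power and hybridization 3 once. With 3 arrays at most behind a value, their number limits the precision.

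The 26S proteasome degrades proteins tagged with ubiquitin in the cytosol and nucleus. Its core is a barrel of stacked rings, in which the outer alpha rings gate the entry and the inner beta rings hold the proteolytic sites. The regulatory particle caps the barrel. Its base unfolds substrates with the ATPases Rpt1 to Rpt6, and its lid removes ubiquitin. In budding yeast Rpn4 binds an element shared by the promoters of most proteasome genes, and the proteasome itself degrades Rpn4, which makes a feedback loop.

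Values are log2 ratios. The labels do not state which channel is the numerator, so Cy5 (recovery) over Cy3 (decompressed) was assumed. Under the opposite reading, higher and lower would change places throughout. Dyes were not swapped on any array, and a gene's dye bias and its change cannot be told apart. In bulk RNA, fewer cells with a transcript and less of it per cell cannot be told apart either. A value covered 4255 of the 4368 genes in hybridization 1, 4326 in hybridization 2 and 2046 in hybridization 3. Of the 36 members, 28 had all 3 values, 7 lacked hybridization 3 and 1, PUP2, lacked hybridization 1.

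Most proteasome genes, 29 of the 36 tested (80.6%), had mean ratios within 0.5 of 0 on the log2 scale, against 59.4% of all genes. Of the 36 members, 4 fell (RPN1, RPN4, RPT2 and ECM29) and 0 rose in limma at an adjusted p of 0.05. Among all 4368 tested, 24.5% passed, 11.9% higher and 12.7% lower. The 4 members that fell are thus 4 of 36 beside a background of 12.7%, which is no excess that could be read as a result about the list. With an unadjusted p under 0.05, 6 members were lower (16.7%) and 0 higher, against 17.7% lower and 17.4% higher of all genes. In the fit over the 1891 genes with 3 values, where 27.2% passed (15.1% higher and 12.2% lower), RPN1 and RPN4 passed out of 28 members.

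The median log2 ratio of the 36 members was 0.05, against -0.01 for all genes tested. Their values ran from -1.24 (RPN1) to 0.51 (RPN10, a ubiquitin receptor), and their quartiles were -0.30 and 0.20, against -0.41 and 0.39 for all genes. The median size of the change, without its sign, was 0.25 in the members and 0.40 in all genes. The 95% interval of the mean lay wholly within a 2-fold change in 28 of the 36 members (77.8%), against 52.1% of all genes. All genes share a pooled variance, so the interval depends only on the mean and the number of values. This share therefore restates the sizes of the means and is no separate result. All 3 values were at hand for 28 of the 36 members but for 1891 of all 4368 genes, and the interval is narrower with 3 values. The 2 sets were not matched for this, here or for the share of means within 0.5 of 0. These shares describe the members and were not tested. A member that missed the threshold is not thereby shown to be at the same level in both groups, since the intervals reach 0.51 (3 values) or 0.62 (2 values) to either side of the mean.

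**Figure D1:**
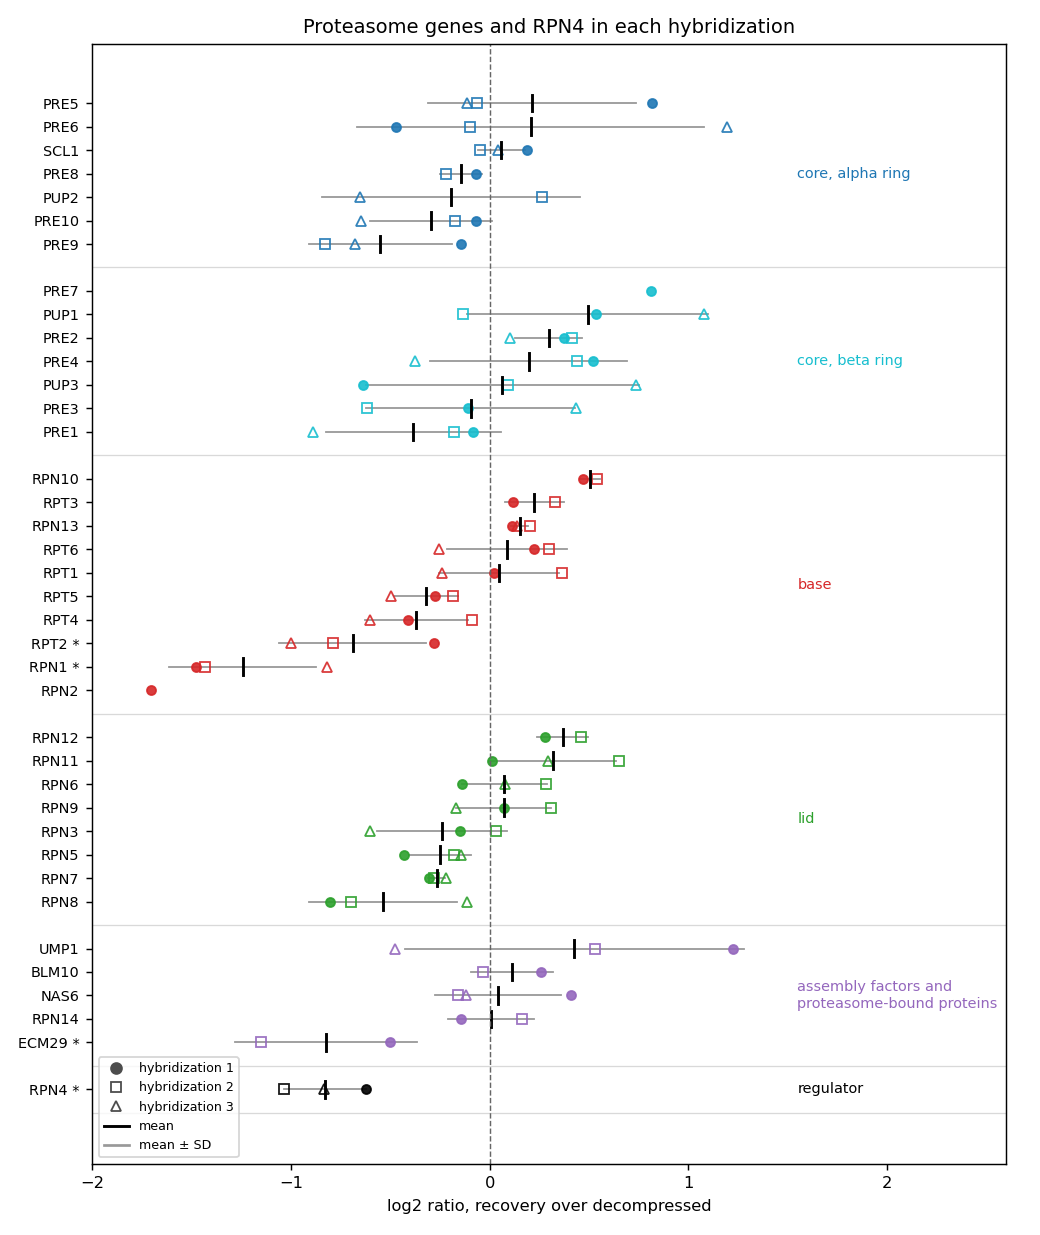
Log2 ratio of recovery over decompressed (horizontal axis) for the 38 listed genes, grouped by role. Filled circles, open squares and open triangles are hybridizations 1, 2 and 3, black ticks are means, grey lines run 1 SD to either side, and an asterisk marks the 4 members that passed the test. Most means lie between -0.5 and 0.5, and RPN1, RPN4, RPT2 and ECM29 stand to the left with RPN2, which has 1 value.

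RPN4 encodes the activator of proteasome genes, a very short-lived zinc finger protein in yeast. Its log2 ratio was -0.62 in hybridization 1, -1.04 in hybridization 2 and -0.83 in hybridization 3. All 3 hybridizations were on the lower side, and the scans of one hybridization were close to each other (-0.53 and -0.72 in hybridization 1, -1.06 and -1.01 in hybridization 2). The mean was -0.83 ± 0.21 (SD, n = 3), a level 1.78-fold lower in recovery, with a 95% interval from -1.34 to -0.32 (limma adjusted p = 0.00979). Over genes with 3 values the adjusted p was 0.0201. The call ended when hybridization 1 was left out (-0.93, limma adjusted p = 0.073) or hybridization 2 (-0.73, adjusted p = 0.119). Those fits rest on 2 values for each gene, and 13.1% and 17.6% of all genes passed in them, against 24.5% in the main fit. The same limit holds for other genes below whose call ended without hybridization 1 or 2. It ended as well after centring within groups of features that share the leading digits of their identifier (-0.44, adjusted p = 0.0724).

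RPN4 was below the median of the other tested members in each hybridization. In hybridization 1 that median was -0.07 over 34 genes, and RPN4 stood 0.55 below it, with 3 of them lower still. RPN2, which was not tested, was lower on that array too, at -1.71. In hybridization 2 the median was -0.05 over 35 genes and RPN4 was lower by 0.98, with 2 members below. In hybridization 3 the median was -0.19 over 28 genes and the gap was 0.64, again with 2 members below. The activator's transcript was therefore among the lowest of the set on every array, while the median of the other members was no lower than -0.19. The gap itself was not tested.

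The core particle showed no call among its 13 tested genes. The median was 0.06, with 7 means above 0 and 6 below, and the range ran from -0.55 to 0.49. In the alpha ring the median of 7 genes was -0.14. PRE9, the only alpha subunit that yeast can live without, was lowest, at -0.15, -0.83 and -0.68 in hybridizations 1 to 3 (mean -0.55 ± 0.36, SD, n = 3, limma adjusted p = 0.109). All 3 of its values were on the lower side and the mean did not pass. PRE5 was highest in this ring, with 0.82, -0.06 and -0.12 (mean 0.21 ± 0.53, SD, n = 3), so that hybridization 1 alone was above 0.

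The remaining alpha subunits varied in the same way between arrays. PRE6 had -0.47 and -0.10 in hybridizations 1 and 2 but 1.19 in hybridization 3, which made its SD of 0.87 the largest of all members. PRE10 had values of -0.07, -0.17 and -0.65, all on the lower side. SCL1 was near 0, at 0.19, -0.05 and 0.04. PRE8, without hybridization 3, was at -0.07 and -0.22, and PUP2, without hybridization 1, was at 0.26 and -0.65.

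The beta ring holds the catalytic subunits and had a median of 0.13 over 6 tested genes. PRE2, which carries the chymotrypsin-like activity, had 0.37, 0.42 and 0.10 in hybridizations 1 to 3 and was the beta subunit whose values were all above 0 (mean 0.30 ± 0.17, SD, n = 3, limma adjusted p = 0.449). PUP1, with the trypsin-like activity, had the highest mean of the core, from 0.53, -0.13 and 1.08 (mean 0.49 ± 0.61, SD, n = 3, adjusted p = 0.159). Its scans of hybridization 2 differed by 0.57 (-0.42 at high and 0.16 at low power), the widest such gap among the members on that array. PRE3, with the caspase-like activity, had -0.11, -0.62 and 0.44, so its sign was not stable. None of these 3 catalytic subunits passed.

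The non-catalytic beta subunits gave no call either. PRE1 was lowest, with -0.08, -0.18 and -0.89 (mean -0.38 ± 0.44, SD, n = 3, limma adjusted p = 0.30). PRE4 had 0.52 and 0.44 in hybridizations 1 and 2 and -0.38 in hybridization 3. PUP3 went from -0.64 through 0.09 to 0.74, which spans 0. PRE7 was read in 1 scan, at 0.81, the third highest of the 37 members with a value in hybridization 1, and it was not tested.

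The base held the member with the lowest mean. RPN1, a large scaffold subunit that docks ubiquitin receptors and the deubiquitinase Ubp6, had log2 ratios of -1.48, -1.43 and -0.82 in hybridizations 1 to 3. All 3 were well below 0, and in hybridizations 1 and 2 no other tested member was lower. The mean was -1.24 ± 0.37 (SD, n = 3), a level 2.37-fold lower in recovery, with a 95% interval from -1.75 to -0.73 (limma adjusted p = 4.07e-05). Over genes with 3 values the adjusted p was 0.00274. Of all genes tested, 3.32% had a lower mean. RPN1 passed under all 14 alternatives, at values from -1.46 to -0.76.

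RPN2, the other large scaffold of the base and a relative of RPN1, could not be tested, because it was read on 1 array. Its scans of hybridization 1 gave -1.68 and -1.73. That was the lowest of the 37 members with a value there, just below RPN1, and 1.44% of the 4364 genes and unnamed features on that array were lower. Whether RPN2 differed in hybridizations 2 and 3 was not analysed here.

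The ATPases of the base had means on both sides of 0. RPT2, whose tail helps to open the gate of the core, had -0.28, -0.79 and -1.001 (mean -0.69 ± 0.37, SD, n = 3, 1.61-fold lower, limma adjusted p = 0.0366). Its 3 values were on the lower side, but over genes with 3 values the adjusted p was 0.0525. It also missed the threshold without any 1 of the 3 hybridizations (adjusted p from 0.0863 to 0.19). Within groups of features it was at -0.39 (adjusted p = 0.108), and at -0.31 with coding length corrected as well (adjusted p = 0.161). RPT4 and RPT5 had all values below 0 as well, with means of -0.37 ± 0.26 and -0.32 ± 0.16 (SD, n = 3) that did not pass. RPT1, RPT6 and RPT3 had means of 0.05, 0.09 and 0.23, and RPT3 had no value in hybridization 3. These 6 genes encode 1 ring, with a median of -0.14 and 1 call.

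RPN10 and RPN13, which encode ubiquitin receptors of the base, had values above 0. RPN10 was highest of all members, at 0.47 and 0.54 in hybridizations 1 and 2 (mean 0.51 ± 0.05, SD, n = 2, limma adjusted p = 0.258). RPN13 had 0.12, 0.20 and 0.14, and its SD of 0.04 was the smallest of all members together with that of RPN7. Neither passed. The base as a whole had a median of 0.05 over 9 tested genes, with 2 lower calls. Over its 7 genes with all 3 values the median was -0.32, since RPN10 and RPT3 drop out.

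The lid had no call among its 8 genes and a median of -0.08. RPN8, the partner of the deubiquitinase Rpn11, was lowest, with -0.80, -0.70 and -0.11 (mean -0.54 ± 0.37, SD, n = 3, limma adjusted p = 0.119). Its first 2 arrays were close together and the third near 0. Without hybridization 3 its mean was -0.75 and passed (adjusted p = 0.04). RPN11, which cuts ubiquitin from substrates, had 0.01, 0.65 and 0.30 (mean 0.32 ± 0.32, SD, n = 3, adjusted p = 0.408). RPN12 was highest in the lid, at 0.28 and 0.46 (mean 0.37 ± 0.13, SD, n = 2, adjusted p = 0.445).

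The other lid subunits had means close to 0. RPN7 had the tightest values of these, at -0.31, -0.28 and -0.22. RPN5 had -0.43, -0.18 and -0.14. RPN3 was at -0.15, 0.03 and -0.60. RPN6 and RPN9 had means of 0.07 each, with values between -0.17 and 0.31. The sizes of these 5 means were at most 0.27, and none passed.

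Among assembly factors and proteasome-bound proteins, UMP1, a chaperone of core assembly that the finished core degrades, was highest. It had 1.22 in hybridization 1, 0.53 in hybridization 2 and -0.48 in hybridization 3 (mean 0.43 ± 0.86, SD, n = 3, limma adjusted p = 0.238). The first 2 arrays and the third lay on opposite sides of 0. Without hybridization 3 the mean was 0.88 and passed (adjusted p = 0.0204). NAS6 and RPN14, chaperones of base assembly, had means of 0.04 and 0.01. BLM10, an activator that can cap the core in place of the regulatory particle, was at 0.26 and -0.03.

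ECM29, a large protein that holds core and regulatory particle together, was called lower from 2 values. They were -0.50 in hybridization 1, from the high-power scan, and -1.15 in hybridization 2, from the low-power scan, with no value in the other scans of these arrays. The mean was -0.82 ± 0.46 (SD, n = 2), a level 1.77-fold lower in recovery (limma adjusted p = 0.0424). With 2 values the test rests on the pooled variance. With the 5 scans as columns the adjusted p was 0.0761. After removal of the trend on coding length the value was -0.35 (adjusted p = 0.444). With centring within feature groups as well, it turned to 0.02 (adjusted p = 0.96).

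**Figure D2:**
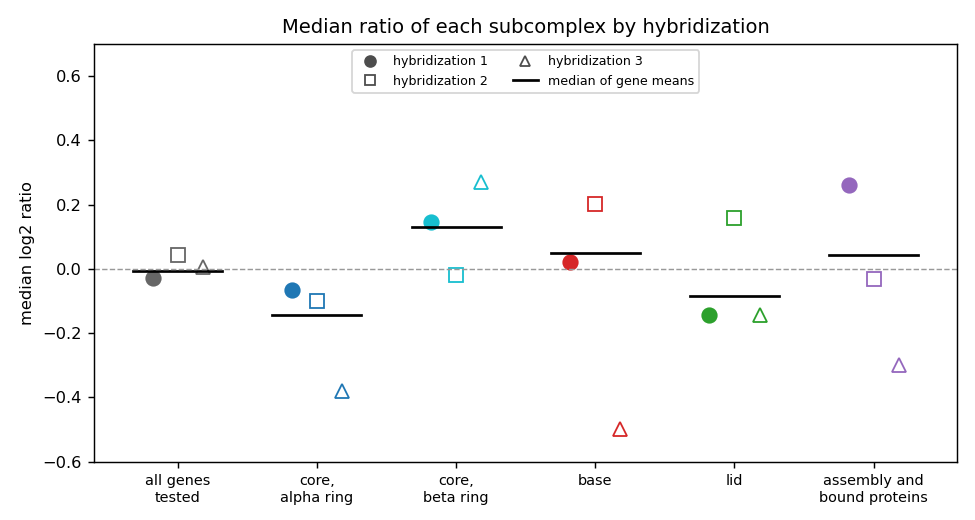
Median log2 ratio (vertical axis) of the tested genes of each subcomplex and of all genes tested, in hybridizations 1 (filled circles), 2 (squares) and 3 (triangles); black bars are medians of the gene means. The bars lie between -0.14 and 0.13, and the base has the widest spread, from 0.20 in hybridization 2 to -0.50 in hybridization 3.

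The core, base, lid and assembly groups kept no order across the arrays. The core median was lower than that of the base by 0.09 in hybridization 1 and by 0.30 in hybridization 2, and higher by 0.46 in hybridization 3. Its median exceeded that of the lid by 0.08 and 0.11 in hybridizations 1 and 3 and was 0.26 lower in hybridization 2. The alpha ring was below the beta ring on each array, by 0.21, 0.08 and 0.65. Members with a value differ between arrays, the assembly group had 2 in hybridization 3, and none of these differences was tested. Over the gene means, the medians of core, base, lid and assembly genes were 0.06, 0.05, -0.08 and 0.04.

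Hybridization 3 gave the members another order than the other two. Across the members, which are not independent replicates and share the arrays, Pearson's r between hybridizations 1 and 2 was 0.68 over 35 genes. Over all genes that value was 0.69. Hybridizations 1 and 3 gave r = 0.15 over 28 members, against 0.60 over all genes, and hybridizations 2 and 3 gave 0.32 over 29 members, against 0.55. PRE6, PUP3 and UMP1 are the members with the widest shift between hybridizations 1 and 3. In hybridization 3, 20 of 29 members were below 0 (69.0%, against 49.3% of all genes), among them all 5 ATPase genes read there. Of the 28 members with 3 values, 14 had the same sign on all arrays (50.0%, against 55.7% of all such genes), 11 of them lower and 3 higher. Of all 1891 such genes, 451 were lower on all arrays and 603 higher. The difference between these splits was not tested.

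**Figure D3:**
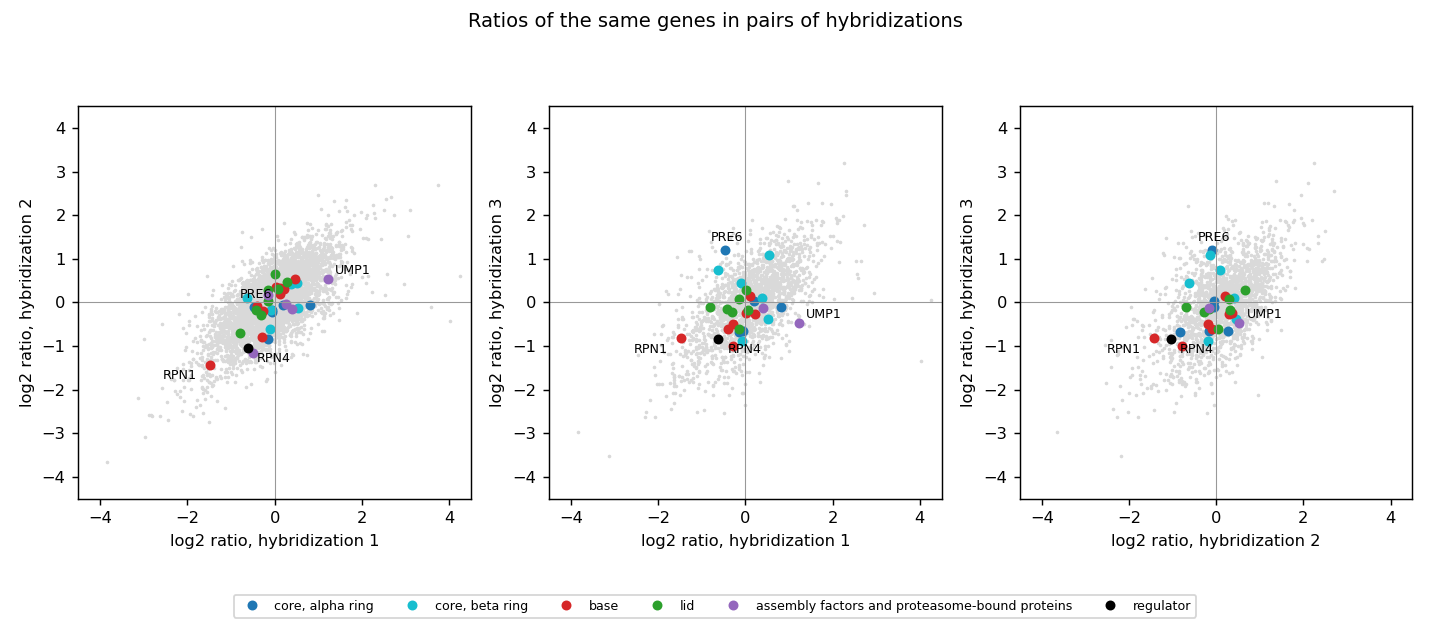
Log2 ratios of the same genes in 2 hybridizations, 1 and 2 (left), 1 and 3 (middle) and 2 and 3 (right), with members coloured by role over all genes tested in grey; in the middle and right panels 1 gene lies outside the axes. The members follow the diagonal in the left panel (r = 0.68) and scatter in the middle one (r = 0.15), where PRE6 and UMP1 lie off it on opposite sides and RPN1 and RPN4 are low in all panels.

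Coding length moved with the ratio, in the members as in all genes. The Spearman correlation of the mean ratio with log2 coding length was -0.41 over the 36 members and -0.38 over the 4170 tested genes with a length. RPN1 has a length of 2982 bases, ECM29 of 5607 and RPN4 of 1596, against a median of 894 in the tested members. With the trend on length removed in each hybridization, RPN1 was at -0.92 (limma adjusted p = 0.00951) and RPN4 at -0.69 (adjusted p = 0.0337), and both still passed. With centring within feature groups too, RPN1 was at -0.76 (adjusted p = 0.0116), while RPN4 was at -0.30 and did not pass (adjusted p = 0.172). RPT2 was at -0.61 with length removed (adjusted p = 0.0621). PRE9, a shorter gene of 777 bases, moved to -0.72 and then passed (adjusted p = 0.0298). BLM10, with 6432 bases the longest member, was at 0.11 before and 0.62 after the correction. The part of length in the lower values beyond this correction was not tested.

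**Figure D4:**
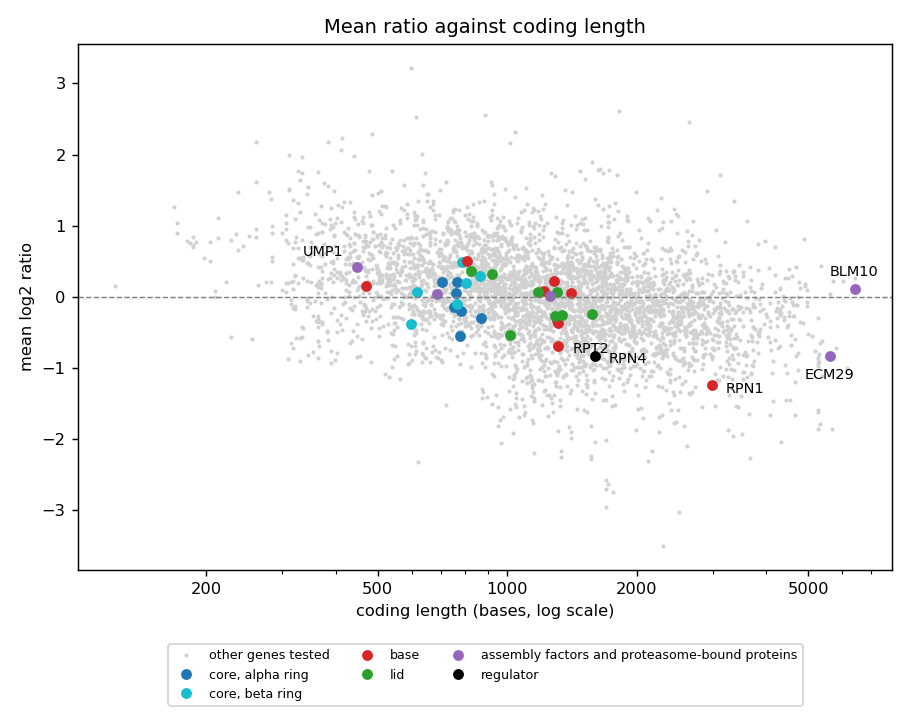
Mean log2 ratio (vertical axis) against coding length in bases (log scale) for all genes tested with a length (grey) and for the members, coloured by role. The cloud falls from left to right, and RPN1, at -1.24 and 2982 bases, and RPN4, at -0.83 and 1596 bases, lie in its lower part, while BLM10, the longest member, is at 0.11.

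Of other genes of the pathway, 35 were listed in 3 groups, and 27 were tested. Of the 27, 1 rose and 3 fell, beside 11.9% higher and 12.7% lower of all genes, and these few calls are not read as a result about the lists. Among 8 other proteasome genes 1 rose and 1 fell, at a median of -0.28. IRC25, which encodes a chaperone of alpha ring assembly, had 1.17, 0.76 and 0.52 (mean 0.82 ± 0.33, SD, n = 3, limma adjusted p = 0.0108), all above 0. SPG5, known as a proteasome assembly factor of stationary-phase yeast, had -0.88, -1.08 and -0.26 (mean -0.74 ± 0.43, SD, n = 3, adjusted p = 0.0232). Over genes with 3 values the adjusted p was 0.0239 for IRC25 and 0.0417 for SPG5. Both calls ended without hybridization 1 or 2 (adjusted p of 0.242 and 0.0812 for IRC25, 0.225 and 0.24 for SPG5). After the correction for coding length IRC25 stood at 0.52 and did not pass (adjusted p = 0.0912), and after centring within groups of features it was at 0.44 (adjusted p = 0.121) and SPG5 at -0.43 (adjusted p = 0.0722). With both corrections IRC25 was at 0.15 (adjusted p = 0.549) and SPG5 at -0.42 (adjusted p = 0.0649). HUL5, a proteasome-bound ubiquitin ligase, and HSM3, a chaperone of the base, had means of -0.76 and -0.68 from 2 values and did not pass. NAS2 (mean 0.50, 2 values) and UBP6 (mean 0.37, 3 values) were on the higher side and did not pass either. Of the 8 means in this list, 5 were below 0 and 3 above.

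Among 4 tested regulators of RPN4, at a median of 0.26, 0 passed, against 24.5% of all genes. An unadjusted limma p under 0.05 was found for 1, on the higher side, against 17.4% of all genes. YAP1 and HSF1, which encode activators of RPN4 transcription, had means of 0.28 and 0.24. RAD6, the ubiquitin-conjugating enzyme that acts in the degradation of Rpn4, had 0.71, 0.75 and 0.35 (mean 0.60 ± 0.22, SD, n = 3, limma adjusted p = 0.0738). MUB1, its partner in that step, had a mean of 0.25. YAP1 in hybridization 1 (-0.21) and MUB1 in hybridization 3 (-0.06) were below 0. PDR1 was read in hybridization 2 alone, at 0.69.

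Of 15 tested genes of the ubiquitin system 2 fell and 0 rose, at a median of -0.14, beside 12.7% lower and 11.9% higher of all genes. UBI4, the polyubiquitin gene, had -1.11, -0.49 and -0.48 (mean -0.70 ± 0.36, SD, n = 3, limma adjusted p = 0.0343, and 0.0497 over genes with 3 values). Its repeats match the ubiquitin parts of other genes, whose cDNA could bind the same spot. Its call ended without hybridization 1 (adjusted p = 0.402) or 2 (adjusted p = 0.0985), and it passed under 9 of 14 alternatives. It also missed the threshold with 5 scans as columns (adjusted p = 0.104) and with high-power scans alone (adjusted p = 0.0616). With length and feature groups corrected the adjusted p was 0.0512. The scans of UBI4 in hybridization 2 were at -0.15 (high power) and -0.83 (low power). UFD1, a cofactor of the segregase Cdc48, was called at -0.80 from values of -0.01, -0.04 and -2.35. That call rests on hybridization 3, without which the mean was -0.03 (adjusted p = 0.955), and over genes with 3 values the adjusted p was 0.128. CDC48 itself had -0.90 and -0.32 and did not pass. Of the 15 means, 9 were below 0 and 6 above, among these NPL4 at 0.34, from -0.25 and 0.93.

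**Figure D5:**
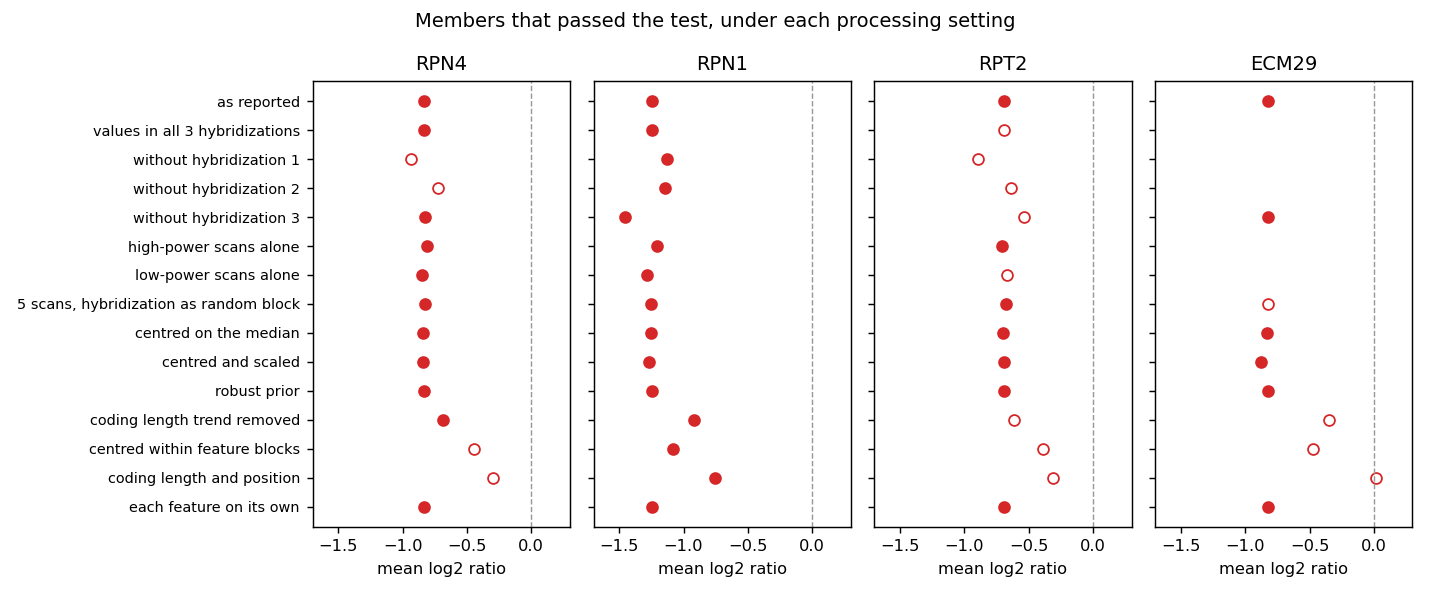
Mean log2 ratio (horizontal axes) of the 4 members that passed the test under each processing setting (rows). Filled circles passed at an adjusted p of 0.05, open circles did not, and no circle means that the gene has too few values for the setting. In the row labels, feature blocks and position stand for groups of features that share the leading digits of their identifier. RPN1 passed in all rows, RPN4 in 11 of 15, RPT2 in 7 of 15 and ECM29 in 6 of 10.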

How the data were processed

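PolyA RNA of recovering (Cy5) and decompressed (Cy3) yeast was co-hybridized on 2-colour arrays, 3 hybridizations in 5 scans. The deposited values are log2 ratios, which the authors normalized by LOWESS from spots with a flag of 0, per the labels. Each of the 36 tested members had 1 feature, and names come from the platform annotation. High-power and low-power scans were averaged into 1 value for each hybridization. No pseudocount, floor or centring was applied. The precision is limited by the number of arrays.

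The mean log2 ratio of every gene was compared with 0 in limma 3.58.1 (R 4.3.3; lmFit with an intercept, eBayes), two-sided, and p-values were adjusted by Benjamini-Hochberg over all 4368 genes or unnamed features with values in at least 2 hybridizations, at an adjusted p of 0.05. The estimated prior was infinite, so all genes share a pooled variance, and the standard error was 0.26 with 3 values and 0.319 with 2. A second fit covered the 1891 genes with 3 values (prior of 12.2 degrees of freedom), and its adjusted p is printed beside the first. On 20 simulated sets of 4368 genes with 200 changed, the first fit recovered 40.7% of changes of 1 on the log2 scale and 98.1% of changes of 2, with 8.4% of its calls false. The second fit, on 1891 genes, recovered 53.1% and 99.2%, with 5.3% false. The simulated noise was independent between genes, without trends on length or feature group. The 200 changed genes are also fewer than the 1072 called in the data, so these rates need not hold there.

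The members and lists were chosen with earlier results of these data known. All members were described by their role, and those that passed, or were highest or lowest in their role, were given by name with each hybridization's value. Genes of the 3 other lists were named where they passed. RAD6, YAP1, HSF1, MUB1, PDR1, HUL5, HSM3, NAS2, UBP6, CDC48 and NPL4 were named after their values were seen. Alternatives were each scan alone, all 5 scans (hybridization as random block), centring, scaling, a robust prior and each feature on its own. Each hybridization was also left out in turn, and coding length and feature groups were corrected for. The groups share the leading digits of the feature identifier, and whether these digits mark a place on the array is not stated. Coding lengths come from the RefSeq table of assembly R64 (97.3% of lengths are multiples of 3). A motif search in promoters was planned and was not made here.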

Additional observations from a re-analysis of the deposited data

How the results depend on the processing

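RPN1 passed under all 14 alternatives. RPN4 kept its direction under 14 and passed under 10. A robust prior and each feature on its own gave both genes the value of the main fit, so those alternatives add no separate support to these counts. RPN4 was at -0.44 within feature groups and -0.30 with length corrected as well (adjusted p = 0.172), and from -0.93 to -0.73 with 1 hybridization left out. The 4 lower members became 2 with values in all 3 hybridizations (RPN1, RPN4) and with low-power scans (RPN1, RPN4). They were also 2 within feature groups (RPN1, RPN5) and with length and feature groups corrected (RPN1, PRE1), and 1 to 4 with 1 hybridization left out. Over all genes, the share called in either direction was 27.2%, 18.2%, 28.8% and 23.4% in these settings, against 24.5% in the main fit. Without hybridizations 1, 2 and 3 in turn that share was 13.1%, 17.6% and 25.1%. The counts of members are not read as a result about them. The 0 higher became 1, UMP1, within feature groups, and 0 to 1 with a hybridization left out. With values in all 3 hybridizations the base median was -0.32. The core median was -0.18 with length corrected and -0.052 with feature groups too. The base median was then -0.19 and -0.16, against 0.05. With 1 hybridization left out, medians ran from -0.39 to 0.16 (base), -0.13 to 0.12 (core) and -0.26 to 0.0076 (lid). ECM29 turned to 0.017 with both corrections. In the other pathway lists the 1 higher call became 0 with low-power scans and under each of the length and feature group corrections. The 3 lower became 1 with high-power scans or 5 scans and 0 with both corrections. With 1 hybridization left out the higher and lower calls were 0 to 3 and 0 to 4. Of all genes, 19.3% were called with length corrected, 24.6% with high-power scans and 20.8% with 5 scans, in either direction. Each ratio already pairs both groups on 1 array, so no further block was fitted. Signal over background is not in the values used here, so what dim spots limit was not tested.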
